A study of Mus musculus with 3 samples.

Results

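Read counts of 10 genes of the nuclear speckle were followed through 3 RIA-seq libraries. These were the CDC-like kinases Clk1, Clk2, Clk3 and Clk4, cyclins Ccnl1 and Ccnl2, and scaffold and SR-related proteins Son, Srrm1, Srrm2 and Pnn. They were picked by gene symbol and are 10 of the 26887 genes listed in any of the libraries. RIA-seq uses antisense oligonucleotides to pull a chosen RNA, with whatever is bound to it, out of fixed cells, and sequences what comes along. The cells were undifferentiated E14 mouse embryonic stem (ES) cells of strain 129/Ola, grown without feeders, and no genetic change or drug was described for any group. In every group the cells were fixed with 1% glutaraldehyde for 10 min, and the sonicated lysate was hybridized at 37 °C overnight. The groups differed in the oligonucleotides: one set matched Actb (β-actin mRNA, the control purification, Actb RIA-seq), one the long noncoding RNA Malat1 (Malat1 RIA-seq) and one Tfrc (transferrin receptor mRNA, Tfrc RIA-seq). The control is thus itself a purification and not untreated RNA. Each condition had 1 library, called the Actb, Malat1 or Tfrc library below, so no spread between replicates could be measured and no test between conditions was made. Intervals given with the values are at the 95% level and cover counting error only, with each read taken as an independent count. The reads were PCR amplified without molecular identifiers, so duplicate reads may make these intervals too narrow.

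Nuclear speckles are bodies of the nucleus that hold splicing factors, and Malat1 RNA is enriched in them. SON and SRRM2 are the large disordered proteins that build speckles, and CLK kinases phosphorylate SR proteins, which releases them from speckles to sites of transcription. Transcripts of the CLK kinases themselves are known to be held in the nucleus with introns that are left in, and exon 4 of Clk1, which is needed for an active kinase, is skipped or kept together with its flanking introns. Cyclins L1 and L2 carry an RS domain, sit in speckles and pair with the kinase CDK11.

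The libraries held between 10078439 and 14553941 counts. A gene could be listed with one count under its Ensembl identifier (Ensembl-ID counts) and another under the reference name Genome (Genome counts), and the Genome counts were 5.25% of all counts in the Actb library, 19.0% in the Malat1 library and 15.1% in the Tfrc library. Which reads were listed as Genome is not given in the sources used here. The 10 genes with the most counts took 52.7% of the Actb library, 23.6% of the Malat1 library and 33.4% of the Tfrc library, and shares of all other genes move with that. The share of the median gene was 1.82-fold higher in the Malat1 library than in the Actb library (log2 0.86), 1.56-fold higher in the Tfrc library (log2 0.64), and 1.15-fold higher in the Malat1 library than in the Tfrc library (log2 0.21). Malat1 RNA was 5.81-fold higher in the Malat1 library and 3.84-fold higher in the Tfrc library than in the control, and Tfrc was 2.69-fold higher in the Tfrc library and 2.32-fold higher in the Malat1 library. All 9 ES cell markers examined had at least 10 counts in each library and summed to between 3195 and 4461 per 1000000 counts, against 18.9 to 21.8 for 5 fibroblast markers and 3.65 to 12.9 for the 4 endoderm and the 4 mesoderm and ectoderm markers.

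All 10 genes are protein-coding and were matched by identifier to GENCODE gene models on the mouse build NCBIM37. They differ in how many of their introns the annotation also holds as part of an exon, in transcripts classed as retained-intron. Of the 117 introns in their reference coding transcripts, 16 lay wholly within such an exon. These were 3 of 12 introns in Clk1, 3 of 12 in Clk2, 4 of 12 in Clk4, 4 of 10 in Ccnl1, 1 of 10 in Ccnl2 and 1 of 17 in Srrm1. No intron of Clk3, Son, Srrm2 or Pnn was covered in this way, and Clk3 and Pnn had a single annotated transcript each.

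**Figure D1:**
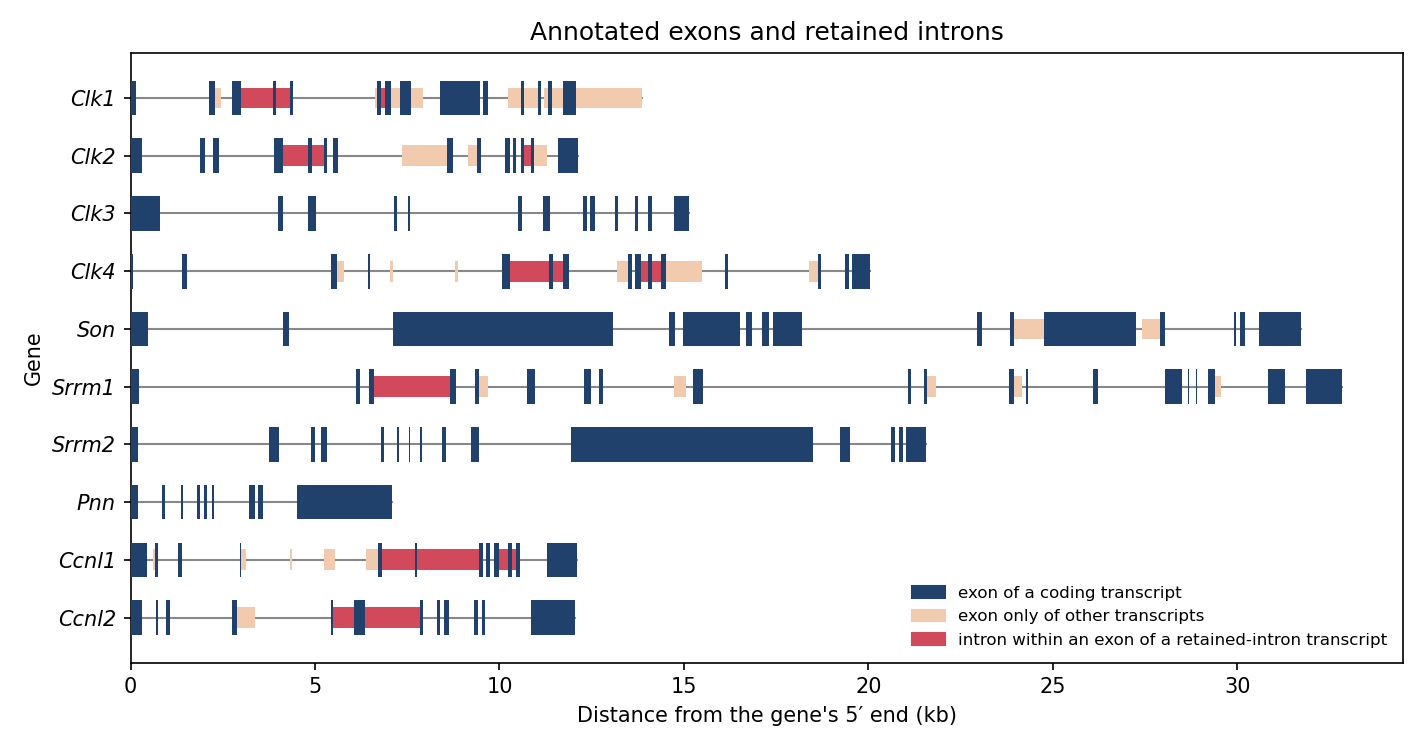
Annotated structure of the 10 genes in NCBIM37, with the distance from the 5′ end of the gene in kb on the horizontal axis and 1 gene per line. Tall blue boxes are exons of coding transcripts, and pale orange boxes are exons of other transcripts only. Red boxes are introns of the reference transcript that lie within an exon of a retained-intron transcript, which number 4 in Clk4, 4 in Ccnl1 and 0 in Clk3.

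In the kinases, the covered introns include those on either side of exon 4, a coding exon of 91 nt in Clk1 and Clk4, 85 nt in Clk2 and 97 nt in Clk3. Both flanking introns were covered in Clk1, Clk2 and Clk4, and neither was covered in Clk3. The donor (5′ splice) sites of introns 3 and 4 are printed because they are where these kinases differ in annotation, followed by intron 5 of the cyclins, which is covered in both. Each is written 5′ to 3′ as 10 bases of exon and 20 bases of intron from the NCBIM37 genome on the strand of the gene, with the first 6 bases of the intron in capitals.
Clk1 intron 3, chr1:58477907-58477936, minus strand: ttcacacgggGTATGAgtgccttttaaacg
Clk4 intron 3, chr11:51085515-51085544, plus strand: gtcgcattcgGTATGAgtggtttgttttta
Clk2 intron 3, chr3:88972836-88972865, plus strand: ctcatcttcaGTGAGTgccagcccagcctt
Clk3 intron 3, chr9:57608611-57608640, minus strand: tgcttcctcgGTGAGTggtggccagagtgt
Clk1 intron 4, chr1:58476945-58476974, minus strand: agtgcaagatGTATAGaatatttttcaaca
Clk4 intron 4, chr11:51086661-51086690, plus strand: agagcaagatGTATAGaatatttttcaaca
Clk2 intron 4, chr3:88973615-88973644, plus strand: caagagcgatGTACAAgccaaatcgtaaca
Clk3 intron 4, chr9:57606414-57606443, minus strand: caagagcgatGTACAGccacctttcgtaaa
Ccnl1 intron 5, chr3:65754382-65754411, minus strand: aaactgcctgGTAAGTtcctcttttacatt
Ccnl2 intron 5, chr4:155192087-155192116, plus strand: agactgcatgGTGAGTtgattttccttgtt
The intron 4 donor windows of Clk1 and Clk4 were the same at 29 of 30 bases, against 14 of 30 for Clk1 and Clk2 and 19 of 30 for Clk2 and Clk3. At intron 3, Clk1 and Clk4 shared the same 6 bases of the intron (GTATGA), and so did Clk2 and Clk3 (GTGAGT). The donor starts searched for, on the strand of the gene, were GTAAGT and, as an alternative, GTGAGT. One of these opened 8 of the 16 covered introns (50%), 27 of the other 101 introns of the 10 genes (26.7%) and 28.8% of 177790 introns in 17566 genes with a CCDS coding transcript. None of the 4 kinases had either start at intron 4, whether or not the intron was covered.

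Srrm2 had the highest level of the 10 in the purified RNA and Clk3 or Ccnl1 the lowest. Levels were compared as Ensembl-ID counts per kb of exon (all annotated transcripts merged) and per 1000000 library counts. No library of unpurified RNA was among the samples. In the Actb library they ran from 55.6 for Srrm2, 34.2 for Pnn, 16.0 for Srrm1, 10.6 for Son, 7.10 for Ccnl2 and 5.73 for Clk2 to 4.66 for Clk3, 3.83 for Clk1, 3.35 for Clk4 and 2.44 for Ccnl1. Neighbours among Clk2, Clk3, Clk1 and Clk4 had overlapping Poisson intervals and the other neighbours did not. In the Malat1 library Srrm2 (138), Pnn (77.4) and Srrm1 (30.0) led again, but Ccnl2 stood above Son, at 26.1 against 18.5, before Clk2 (16.4), and Ccnl1 above Clk1, at 9.15 against 7.66. Clk4 (6.91) followed Clk1, and Clk3 was last (6.37), and only Clk1 with Clk4 and Clk4 with Clk3 had overlapping intervals. In the Tfrc library Srrm2 (109), Pnn (61.9) and Srrm1 (30.7) came before Son (14.4), Ccnl2 (14.1) and Clk2 (13.2), which overlapped neighbour by neighbour, then Clk1 (8.79), and Clk4 (6.59), Ccnl1 (6.45) and Clk3 (5.81), which did likewise. The lower part of this order depends on which exons are counted in the length: per kb of exon in coding transcripts only, a choice made after the data were seen, Clk3 was last in all 3 libraries (4.66 in the Actb library, 6.37 in the Malat1 library and 5.81 in the Tfrc library), while Clk1 stood at 10.1, 20.2 and 23.2 and Ccnl1 at 6.64, 24.9 and 17.6.

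**Figure D2:**
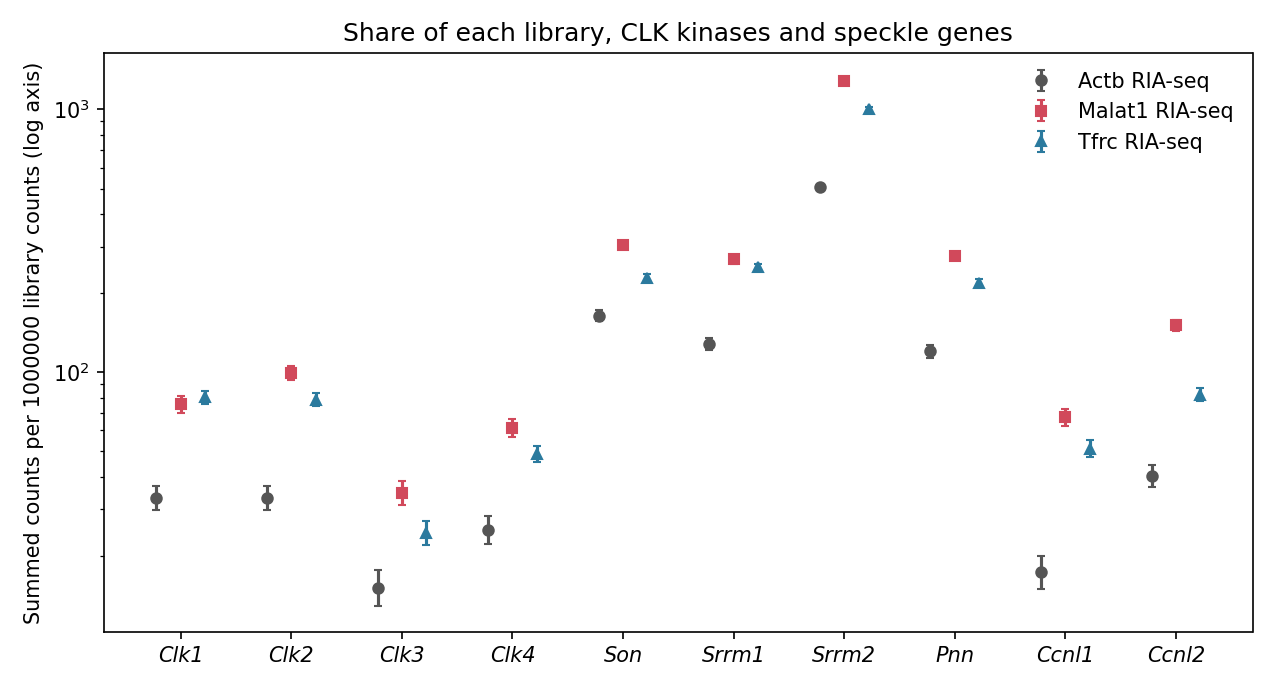
Summed Ensembl-ID and Genome counts of each gene per 1000000 library counts on a log axis, with 95% Wilson intervals, for the 3 libraries of 1 sample each. Every gene is lowest in the Actb library, and Clk1 alone is not highest in the Malat1 library, with 75.3 there and 80.2 in the Tfrc library. With the median gene set equal between libraries, Son is lower in the Tfrc library than in the Actb library, and Srrm1 too is lower in the Malat1 library than in the Tfrc library.

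All 10 genes had a larger share of the Malat1 library than of the Actb library, and the cyclins stood furthest from the control. The fold increase, the ratio of the summed shares, ran from 1.85 for Son to 3.89 for Ccnl1, with a median of 2.37 against 1.82 over the 14572 genes that had 10 counts or more in each of them. The interval lay above 1 for all 10 genes and for 74.6% of all genes. For 9 of the 10 genes the fold was at least 2, which held for 42.1% of all genes tested. After the median gene was set to 1, all 10 remained at or above it, and 2 of 10, Ccnl1 and Ccnl2, were still at least 2-fold higher, against 7.38% of all genes. An RNA pulled down more often and a library in which other RNAs take less room cannot be told apart from shares alone.

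Among the kinases, which act on the splicing factors that speckles store, Clk1 and Clk2 had the most counts. Clk1 (ENSMUSG00000026034, chr1:58467033-58480910, minus strand) had 345 counts in the Actb library, 759 in the Malat1 library and 1167 in the Tfrc library, or 33.2, 75.3 and 80.2 per 1000000. It was low in the control and about equal in the other libraries, with folds over the control of 2.27 (2.00 to 2.58) and 2.42 (2.14 to 2.73). Clk2 (ENSMUSG00000068917, chr3:88968717-88980843, plus strand) had 344, 1003 and 1144 counts in the same order, or 33.1, 99.5 and 78.6 per 1000000. Clk1 and Clk2 were thus level with each other in the Actb library, with a Clk1 to Clk2 ratio of 1.00 (0.864 to 1.16), and in the Tfrc library (1.02, 0.940 to 1.11), while in the Malat1 library Clk1 had 0.757 of the counts of Clk2 (0.689 to 0.832). The fold of Clk2 over the control was 3.01 (2.66 to 3.40) in the Malat1 library, the largest of the kinases, and 2.38 (2.11 to 2.68) in the Tfrc library.

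Clk3 and Clk4 were the kinases with fewest counts. Clk4 (ENSMUSG00000020385, chr11:51075232-51095268, plus strand), which shares the most exon sequence with Clk1, had 261, 616 and 710 counts in the Actb, Malat1 and Tfrc libraries, or 25.1, 61.1 and 48.8 per 1000000. Its folds over the control were 2.44 (2.11 to 2.82) and 1.94 (1.69 to 2.24). Clk3 (ENSMUSG00000032316, chr9:57598518-57613667, minus strand) had 157, 349 and 354 counts, or 15.1, 34.6 and 24.3 per 1000000, so that its share in the Tfrc library lay between the other libraries. In the Malat1 library it was 2.30-fold (1.90 to 2.77) and in the Tfrc library 1.61-fold (1.34 to 1.95) higher than in the control. A stretch of 418 nt of exon with 87.1% identity is common to Clk1 and Clk4, in which reads may be split between them, and 582 nt of Clk3 exon lie opposite exons of Edc3, a decapping gene with 153, 244 and 300 Ensembl-ID counts in the same libraries. Edc3 overlaps 1789 nt of the Clk3 gene in all, introns included, and had 16, 123 and 141 Genome counts. Whether reads were counted by strand is not given in the sources used here. Counts of Clk3 and Edc3 in the overlap, of either kind, therefore cannot be told apart.

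The cyclins had the largest folds in the Malat1 library. Ccnl1 (ENSMUSG00000027829, chr3:65750073-65762171, minus strand) had 180 counts in the Actb library, 679 in the Malat1 library and 744 in the Tfrc library, or 17.3, 67.4 and 51.1 per 1000000. Its folds over the control, 3.89 (3.30 to 4.59) and 2.96 (2.51 to 3.48), lay at percentiles 94.4 and 91.5 of all genes tested. Ccnl2 (ENSMUSG00000029068, chr4:155186598-155198652, plus strand) had 418, 1517 and 1194 counts, or 40.2, 151 and 82.0 per 1000000. It was high in the Malat1 library and intermediate in the Tfrc library, with folds of 3.75 (3.36 to 4.18; percentile 93.4) and 2.04 (1.83 to 2.28; percentile 73.0). The Ccnl1 to Ccnl2 ratio was 0.431 (0.362 to 0.513) in the Actb library and 0.448 (0.409 to 0.490) in the Malat1 library, whose intervals overlap, and 0.623 (0.569 to 0.683) in the Tfrc library, which overlaps neither. Taken as sums, the 2 cyclins were 3.79-fold (3.46 to 4.15) higher in the Malat1 library than in the control, the 4 kinases 2.54-fold (2.37 to 2.73) and the 4 scaffold and SR-related genes 2.32-fold (2.27 to 2.38).

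Among the scaffolds, Srrm2 had the largest fold and Son the smallest. Srrm2 (ENSMUSG00000039218, chr17:23940154-23961706, plus strand) had 5260 counts in the Actb library, 12903 in the Malat1 library and 14599 in the Tfrc library, or 506, 1280 and 1003 per 1000000. These gave folds of 2.53 (2.45 to 2.62) and 1.98 (1.92 to 2.05) over the control. Son (ENSMUSG00000022961, chr16:91647751-91679466, plus strand) had 1706, 3059 and 3334 counts, or 164, 304 and 229 per 1000000. Its fold of 1.85 (1.74 to 1.96) in the Malat1 library was that of a typical gene (1.02 times the median gene), and its fold of 1.40 (1.32 to 1.48) in the Tfrc library was 0.896 times the median gene, so that its direction depends on the scaling there. The 2 speckle scaffolds accordingly differed in their ratio, with 0.324 Son counts per Srrm2 count in the Actb library (0.307 to 0.343), 0.237 in the Malat1 library (0.228 to 0.247) and 0.228 in the Tfrc library (0.220 to 0.237).

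Srrm1, a splicing coactivator that binds the exon junction complex, and Pnn, a protein of speckles and of desmosomes, had folds between those of Son and Srrm2 in the Malat1 library. Srrm1 (ENSMUSG00000028809, chr4:134876399-134909236, minus strand) had 1335, 2707 and 3643 counts in the Actb, Malat1 and Tfrc libraries, or 128, 269 and 250 per 1000000. It was nearly as high in the Tfrc library as in the Malat1 library, with folds of 1.95 (1.83 to 2.08) and 2.09 (1.96 to 2.24) over the control. Pnn (ENSMUSG00000020994, chr12:60167906-60175004, plus strand) had 1247, 2792 and 3185 counts, or 120, 277 and 219 per 1000000. Its folds were 2.31 (2.16 to 2.47) in the Malat1 library and 1.83 (1.71 to 1.95) in the Tfrc library. For Son, Pnn and Ccnl1 no single aligned stretch of exon of at least 100 nt at 80% identity was found in another gene. Son exons do overlap exons of Donson on the opposite strand, by 103 nt in all. In contrast, 1045 nt of Srrm2 matched the gene Gm16581 at 92.3% and 211 nt of Srrm1 matched Gm12024 at 82.0%.

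**Figure D3:**
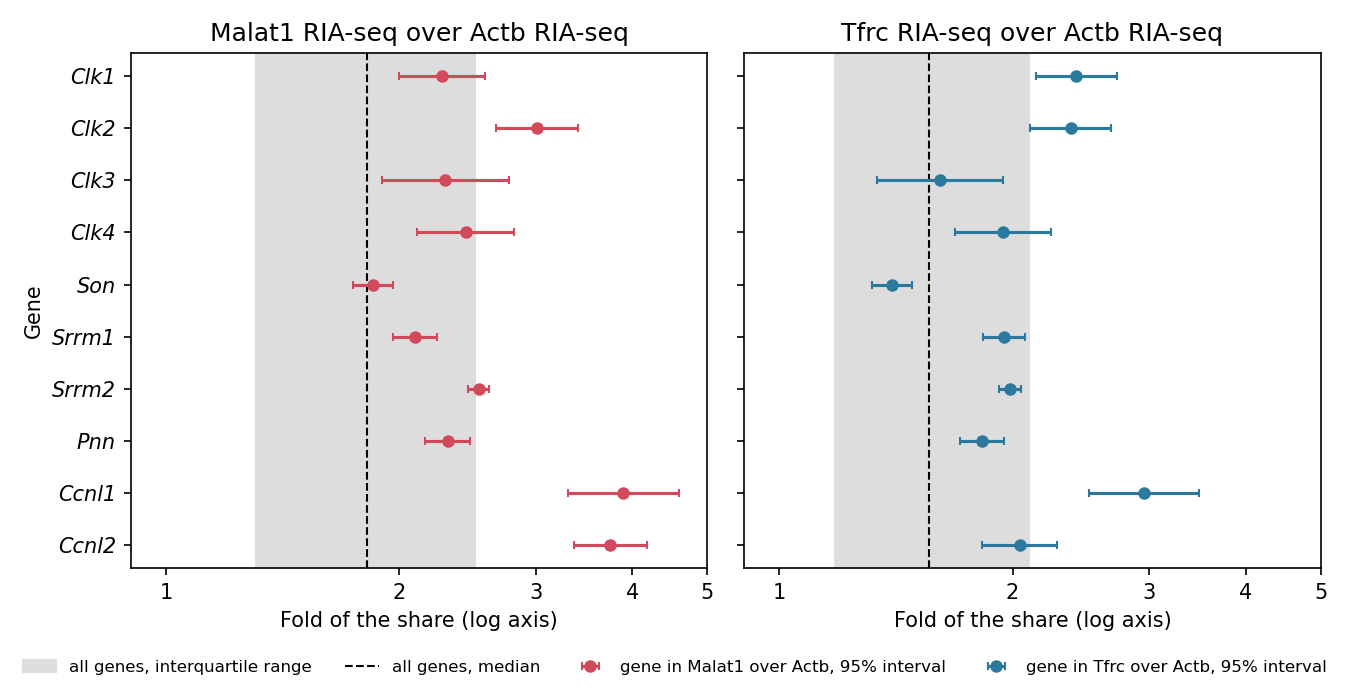
Fold increase of the summed share of each gene over the Actb library, on a log axis with 95% intervals, in the Malat1 library (left) and the Tfrc library (right). The dashed line is the median of all genes tested (1.82 left, 1.56 right) and the grey band their interquartile range. Ccnl1, Ccnl2, Clk2 and Srrm2 lie beyond the band on the left, Ccnl1, Clk1 and Clk2 lie beyond it on the right, and Son lies below the median line on the right, where its fold is 1.40.

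In the Tfrc library the 10 genes were again above the control. By summed counts their median fold was 1.26 times that of the median gene, against 1.30 times in the Malat1 library. By Ensembl-ID counts the order was the other way, with 1.55 times in the Tfrc library and 1.53 times in the Malat1 library. By summed counts the median fold was 1.97, against 1.56 over 14691 genes. The interval lay above 1 for all 10 genes and for 69.4% of all genes. Of the 10, 4 genes (Clk1, Clk2, Ccnl1 and Ccnl2) were at least 2-fold higher, against 28.6% of all genes tested. Once the median gene was set to 1, none of the 10 was 2-fold higher (background 6.9%), and Son was on the other side of it (0.896). Since the Malat1 library and the Tfrc library were compared with the same control library, a low count in the Actb library raises both folds.

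The libraries against Malat1 and Tfrc can be set against each other without the control. Of the 10 genes, 9 had a fold interval above 1 in favour of the Malat1 library, as did 39.5% of all 16430 genes tested, and the median fold was 1.27 against 1.15 over all genes. That median was 0.989 with the 75th percentiles of the libraries set equal, where Clk1, Clk2, Clk4, Srrm1, Srrm2 and Pnn were below 1. Ccnl2 stood furthest, with 1.83 (1.70 to 1.98; percentile 93.6), and Clk1 was on the other side, with 0.939 (0.857 to 1.03). Ccnl1 (1.32, 1.19 to 1.46) did not share the value of Ccnl2, and the pair differed by more than their counting intervals. Srrm1 (1.07, 1.02 to 1.13) was below the median gene when that was set to 1 (0.930), as was Clk1 (0.814). None of the 10 reached 2-fold in this comparison, against 4.35% of all genes.

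Ensembl-ID counts and Genome counts of the same gene gave different folds, and the kinase Clk3 showed the widest gap. By Ensembl-ID counts Clk3 had 121, 160 and 211 counts in the Actb, Malat1 and Tfrc libraries, and by Genome counts 36, 189 and 143. Its Ensembl-ID fold in the Malat1 library was 1.37 (1.08 to 1.73), the smallest of the 10 genes, while its Genome fold was 5.42 (3.80 to 7.74). Over all genes tested the median folds there were 1.41 by Ensembl-ID counts and 3.60 by Genome counts. A gap in this direction was thus not particular to the 10 genes. Among all genes tested, the Ensembl-ID fold of Clk3 was at percentile 46.8 and its Genome fold at percentile 88.7. Genome counts made up 78.3% of the difference in its share between the Malat1 library and the control, 42.6% of that of Clk4 (202, 404 and 556 Ensembl-ID counts and 59, 212 and 154 Genome counts), and between 4.63% (Pnn) and 26.1% (Srrm1) of that of the other 8. For the kinases as a sum this part was 31.3%, for the cyclins 12.2% and for the scaffold and SR-related genes 9.31%. The Clk3 values, also within the sum of the kinases, may include reads of the overlapping gene Edc3.

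The cyclins kept most of their fold in Ensembl-ID counts. Ccnl1 had 152, 553 and 563 Ensembl-ID counts and 28, 126 and 181 Genome counts in the Actb, Malat1 and Tfrc libraries, and Ccnl2 had 390, 1391 and 1085 against 28, 126 and 109. Their Ensembl-ID folds in the Malat1 library, 3.76 (3.14 to 4.49) and 3.68 (3.29 to 4.12), were at percentiles 96.7 and 96.5. In all, 7 of 10 genes were at least 2-fold higher in the Malat1 library by Ensembl-ID counts (24% of all genes) and 3 of 10 in the Tfrc library (14.1%). By Genome counts the numbers were 10 of 10 (88.6%) and 9 of 10 (79.6%). In the Malat1 library the Genome folds ran from 3.71 for Clk4 to 6.83 (3.81 to 12.2) for Pnn, which had 13, 86 and 59 Genome counts. In the Tfrc library they ran from 1.87 for Clk4 to 4.62 for Ccnl1. Expressed as a share of all Genome counts instead, the 10 genes were 1.02 to 1.89 times the control in the Malat1 library, all above 1, and 0.649 (Clk4) to 1.61 (Ccnl1) times in the Tfrc library, with 5 below 1. Clk2, Ccnl1 and Ccnl2 had the same number of Genome counts in the control (28) and in the Malat1 library (126), so their Genome folds there are equal, though Clk2 differed from both in the Tfrc library (124).

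**Figure D4:**
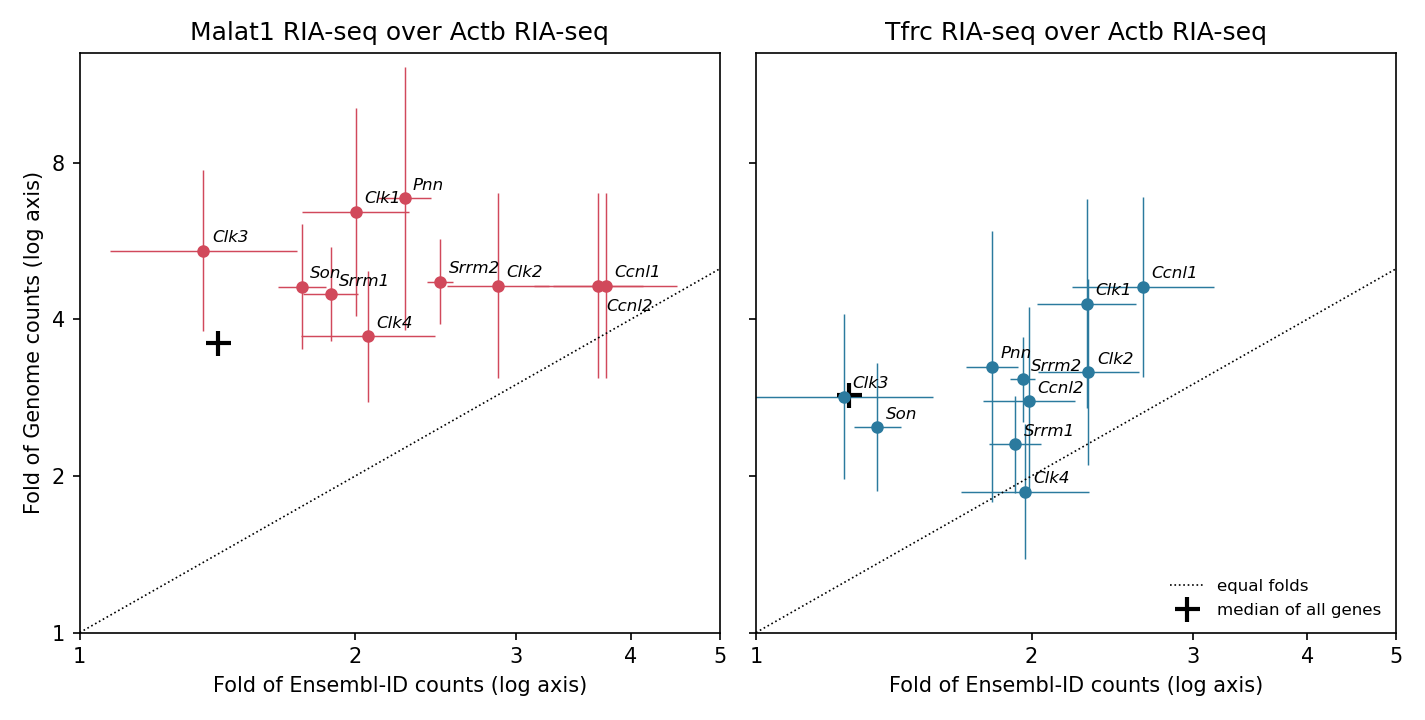
Fold over the Actb library by Genome counts (vertical) against the fold by Ensembl-ID counts (horizontal), both on log axes with 95% intervals, in the Malat1 library (left) and the Tfrc library (right). The dotted line marks equal folds and the cross the median of all genes tested. All 10 genes lie above the line on the left, and Clk4 (1.97 by Ensembl-ID counts, 1.87 by Genome counts) lies just below it on the right.

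The Genome share, the part of a gene's own counts listed under Genome, was highest for Clk3 and lowest for Pnn in every library. For Clk3 it was 22.9% (17.0 to 30.1) in the Actb library, 54.2% (48.9 to 59.3) in the Malat1 library and 40.4% (35.4 to 45.6) in the Tfrc library. For Pnn it was 1.04% (0.610 to 1.78), 3.08% (2.50 to 3.79) and 1.85% (1.44 to 2.38), and Srrm2 was next, with 2.53%, 4.72% and 3.91%. Clk4 had 22.6% (17.9 to 28.1), 34.4% (30.8 to 38.3) and 21.7% (18.8 to 24.9), so that it overlapped Clk3 in the control and not in the other libraries. Clk1 had 6.09%, 17.3% and 10.8%, and Clk2 8.14%, 12.6% and 10.8%. The median over the 10 genes was 7.42%, 14.9% and 10.3%, below the median of all genes with introns and at least 100 counts, which was 10.2%, 26.5% and 23.7%, and 3, 2 and 2 of the 10 lay above it.

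The Genome share was higher in the Malat1 library than in the control for all 10 genes, but for the cyclins by less than the counting interval. The ratio of Genome shares between these libraries had a median of 2.00 over the 10 genes and 1.96 over 5787 genes. It was 2.84 (1.82 to 4.41) for Clk1, 2.36 (1.75 to 3.20) for Clk3, 2.50 (1.90 to 3.27) for Son, 1.19 (0.820 to 1.74) for Ccnl1 and 1.24 (0.835 to 1.84) for Ccnl2. Between the Malat1 and Tfrc libraries the median ratio was 1.37, against 1.07 over 8296 genes. Srrm1, with 8.24%, 17.6% and 9.72% in the 3 libraries, had the highest of these ratios, 1.81 (1.59 to 2.06; percentile 93.2). Ccnl1, with 15.6%, 18.6% and 24.3%, had the lowest, 0.763 (0.623 to 0.934; percentile 8.94). Ccnl2 (6.70%, 8.31% and 9.13%) and Son (3.58%, 8.92% and 6.36%) lay between them, at 0.910 (0.712 to 1.16) and 1.40 (1.18 to 1.67).

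**Figure D5:**
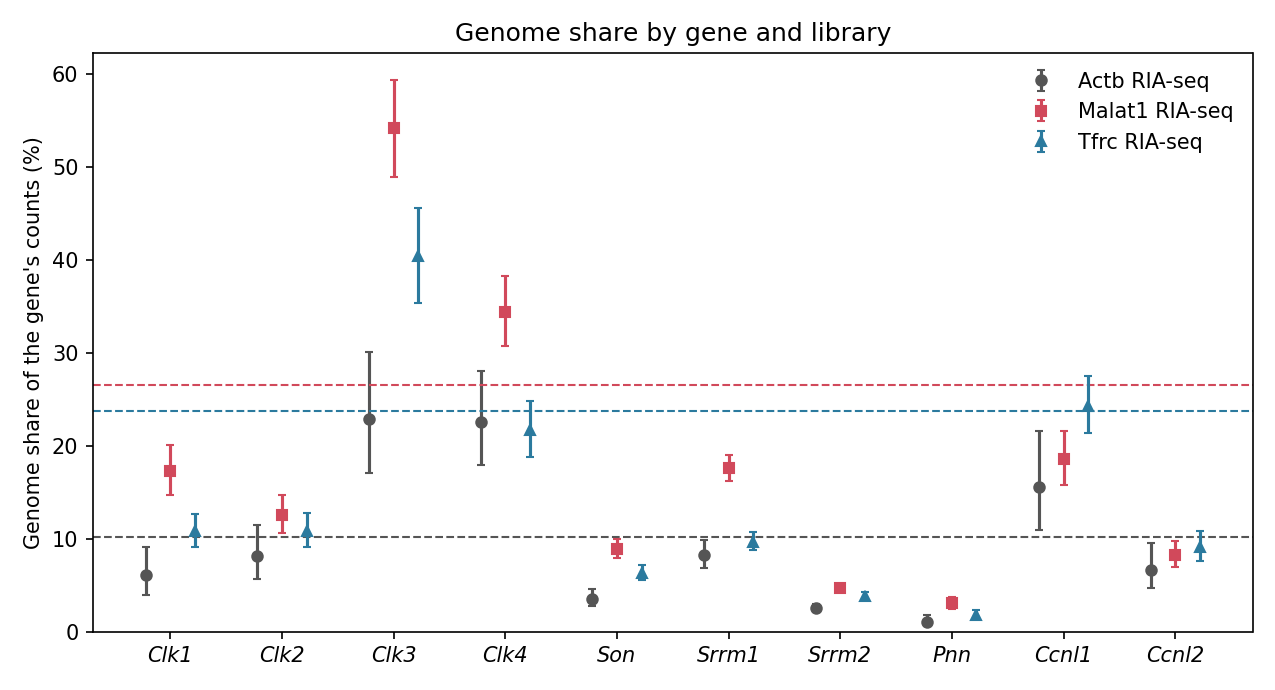
Genome share of the counts of each gene in percent, with 95% Wilson intervals, for the 3 libraries. Dashed lines are the medians over all genes with introns and at least 100 counts in the library of the same colour (10.2%, 26.5% and 23.7%). Clk3 lies above the line of its library in all 3 libraries, and Clk1, Clk2, Son, Srrm1, Srrm2, Pnn and Ccnl2 lie below it in all 3.

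The introns of the 10 genes are shorter (median 663 nt) than those of coding genes at large (1356 nt), so their Genome counts were also taken per kb of intron and set against Ensembl-ID counts per kb of exon. The ratio assumes that Genome counts come from introns, which was not tested. All genes here means those with at least 1 kb of intron and at least 100 Ensembl-ID counts in the library. Their median ratio was 1.76% in the Actb library, 5.32% in the Malat1 library and 4.87% in the Tfrc library. Over the 10 genes the median was 5.73%, 9.92% and 8.63%, with 9, 8 and 7 of them above the median of all genes. The difference rested largely on what the annotation counts as exon. With exons of coding transcripts only, the medians were 2.17%, 4.26% and 3.18% for the 10 genes and 1.48%, 4.39% and 4.01% for all genes, and 8, 5 and 4 of them lay above. Clk1 went from 29.6% to 7.16% in the Malat1 library, Clk4 from 21.4% to 6.44% and Ccnl1 from 22.4% to 5.06%, whereas Clk3, Srrm2 and Pnn, which have no annotated exon outside coding transcripts, kept their values. Clk3 stood at 5.86%, 23.3% and 13.4% in the Actb, Malat1 and Tfrc libraries, percentiles 93.1, 96.7 and 91.7 in that version. These Clk3 values, like its Genome shares, may include reads of the overlapping gene Edc3. Pnn stood at 1.01%, 3.04% and 1.80%, percentiles 35.2, 35.5 and 22.6.

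Other kinases, splicing factors and export factors of speckles, 33 genes in all, were nearer to the median gene than the 10 genes above. In the Malat1 library 32 of them could be compared with the control (Srpk3 had 5 counts in the control), their median fold was 2.01 and 16 were at least 2-fold higher, beside 42.1% of all genes. In the Tfrc library the median was 1.61 and 10 were at least 2-fold higher, beside 28.6% of all genes. Prpf4b, a kinase of the spliceosome, had the highest fold in the Malat1 library (582, 2019 and 1930 counts in the Actb, Malat1 and Tfrc libraries, 3.58-fold and 2.37-fold), before Luc7l3 (3.34-fold and 2.67-fold) and Nsrp1 (3.16-fold and 2.16-fold), which both act in splicing. At the other end stood Rnps1 (1032, 918 and 1371 counts, 0.918-fold and 0.950-fold) and Alyref (0.935-fold and 0.944-fold), which join exon junctions and mRNA export, and Pabpn1, which binds poly(A) tails in the nucleus (1.09-fold and 1.12-fold).

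A further 4 genes are known, like the CLK kinases, for transcripts that keep an intron. Ogt, which adds O-GlcNAc to proteins, had 698, 2202 and 2150 counts, folds of 3.26 (2.99 to 3.55) and 2.20 (2.02 to 2.40), and Genome shares of 11.5%, 16.5% and 16.0%. Oga (listed as Mgea5), which removes O-GlcNAc, had 841, 1642 and 1753 counts, folds of 2.02 and 1.49, and Genome shares of 15.1%, 41.0% and 34.0%. The mRNA export receptor Nxf1 (751, 1384 and 1467 counts) had folds of 1.90 and 1.40, with Genome shares of 10.3%, 21.5% and 19.4%. Mat2a, which makes S-adenosylmethionine, had 1520, 2278 and 2900 counts, folds of 1.55 and 1.36, and Genome shares of 2.70%, 5.00% and 5.93%. Of the 4 genes, 3, 1 and 1 had a Genome share above the median of all genes in the Actb, Malat1 and Tfrc libraries. The folds were above that of the median gene for 3 of 4 in the Malat1 library and for 1 of 4 in the Tfrc library, and Mat2a was below it in both.

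The 3 genes outside the 10 whose pattern was nearest to their median were sought over 5 measures: the log2 folds of the Malat1 library and the Tfrc library over the control, and the Genome share in each library. Among 7664 genes with at least 100 counts in every library they were Slc38a6 (distance 0.0372), Nkrf (0.0638) and Slc11a2 (0.0683). Slc38a6 had folds of 2.40 and 2.00 with Genome shares of 7.96%, 12.6% and 10.1%. Of the 10 genes themselves, Srrm2 was nearest to their median (0.160, with 42 genes nearer), and Ccnl1 was furthest from it (0.940, with 3976 genes nearer).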

How the data were processed

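The authors deposited, for each of 3 libraries, whole-number read counts per gene without normalization, listed under an Ensembl identifier or under Genome. Per the labels, the submitters' processing notes name Bowtie 0.12.7, mm9 and NCBIM37. The counter, the strand setting and the handling of reads with several matches are not given in the sources used here. Both counts of a gene were summed and divided by the library total. Folds are ratios of these shares, with a pseudocount of 0 and a log-scale interval from the counts of both libraries; the folds of all genes were taken where both libraries had at least 10 counts. Shares have Wilson intervals and levels per kb exact Poisson intervals. At 10078439 to 14553941 counts per library, a floor of 3 counts, a chosen setting, stands for 0.206 to 0.298 per 1000000. Genes with fewer counts are listed too. Gene models came from GENCODE on NCBIM37 (Ensembl release 65), and shared exon sequence from blastn at 80% identity over 100 nt. With 1 library per condition, no test was made. The members and lists were chosen with earlier results of these data known. All 10 members are named, with the 3 speckle genes of largest and of smallest fold in the Malat1 library among those with at least 100 counts in each library, the whole list of genes with a kept intron, and the 3 nearest genes. Alternatives were scaling by the median ratio or the 75th percentile, totals without the 3 target genes or without the 10 genes with the most counts, a pseudocount of 1, either kind of count alone, minimums of 50 or any count, coding exons and pooled counts. The fold computation was tested on simulated data. Software: Python 3.11.15, numpy 2.4.6, pandas 2.3.3, scipy 1.17.1, matplotlib 3.10.9, BLAST+ 2.17.0 and samtools 1.23.1.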

Additional observations from a re-analysis of the deposited data

How the results depend on the processing

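The scaling decided how many of the 10 genes were at least 2-fold higher. In the Malat1 library over the Actb library this number, 9, became 2 with the median gene set to 1, 2 with the 75th percentiles set equal, 2 without the 10 genes with the most counts and 0 with Genome counts over the Genome total, and the median fold of 2.37 became 1.30, 1.49, 1.47 and 1.28. In the Tfrc library over the Actb library the 4 became 0, 1, 1 and 0, and the median of 1.97 became 1.26, 1.59, 1.40 and 1.03. Between the Malat1 library and the Tfrc library the median of 1.27 became 1.10, 0.989, 1.11 and 1.40. With Genome counts over the library total these medians were 4.65, 2.95 and 1.76, and 9 genes were at least 2-fold higher in the Tfrc library. Ccnl2, 2.04-fold higher in the Tfrc library, was 0.969 times the control with Genome counts over the Genome total. Pooling the 10 genes gave Genome shares of 4.59%, 8.92% and 6.76% in the Actb, Malat1 and Tfrc libraries. The median Genome to Ensembl-ID ratio per kb over the 10 genes, 5.73%, 9.92% and 8.63%, became 2.17%, 4.26% and 3.18% with coding exons only, and pooling the genes, with all exons kept, gave 2.94%, 5.97% and 4.42%. A pseudocount of 1 and minimums of 50 or of any count left all 30 folds of single genes within their counting interval. No paired analysis was possible because each condition had 1 library. Counting intervals say nothing of the spread between purifications. Clk3 and Ccnl1, with 157 and 180 counts in the control, have the widest fold intervals.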

Other observations

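Between 174 and 953 other genes shared exon sequence of at least 100 nt at 80% identity with Clk1 (542 genes), Clk2 (953), Clk4 (941) and Ccnl2 (174), over 9.69%, 3.21%, 14.0% and 2.35% of their merged exons. Apart from Clk3, a second member overlapped a gene on the other strand by exon: Son shared 103 nt of exon with Donson, which had 68, 151 and 166 Ensembl-ID counts in the Actb, Malat1 and Tfrc libraries. Donson overlaps 1954 nt of the Son gene in all, introns included, and had 17, 62 and 58 Genome counts. As for Clk3, counts of Son and Donson in the overlap, of either kind, cannot be told apart. The Genome shares of Son may thus include reads of Donson.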
